A study of Mus musculus with 8 samples.

Results

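Late erythroid progenitors were chosen by measured UMI counts, as the cells that carried at least 1 UMI (unique molecular identifier, a counted mRNA molecule) of Klf1 and of Car1 and at least 1 UMI of 2 or more of Rhd, Cldn13, Ctse and Fam132a. Of 10046 kept cells of the series, 722 met this rule and 9324 did not. They came from the bone marrow of 16 wildtype C57Bl/6 mice of 12 to 14 weeks, with 4 mice in each of 4 groups. The treatment was a subcutaneous dose of recombinant IFNα, 50000 IU to 20 g of mouse, given 3, 24 or 72 h ahead of the harvest. Controls got 100 μl of PBS. Sorted LK cells (lineage-negative, Kit-positive progenitors) were mixed with added LK CD150+ CD48- CD34- cells, so a share of cells is a share of this sorted mixture and not of bone marrow. The 4 mice of a group carried 4 hashtag antibodies in a single 10x Genomics 3′ library, so that time after IFNα and library cannot be told apart in any comparison below, and controls were collected as 1 such library too. The rule kept 204 of 2474 control cells, 87 of 1661 at 3 h, 257 of 3462 at 24 h and 174 of 2449 at 72 h. Each mouse gave between 5 and 90 such cells, with 145521 to 2956041 UMIs summed over them. Control mouse 4 gave the 5 cells and the lowest sum, so a gene at 0 there could stand at up to 20.6 CPM (UMIs of a gene in 1000000 UMIs of the mouse's late cells), with 3 UMIs as the limit that a count of 0 allows. The CPM of single genes given mouse by mouse, from Isg15 onward, use library sizes scaled by edgeR's TMM factors (0.891 to 1.05). Pooled levels, marker sums and the limit of 20.6 CPM are not scaled in this way. CPM from 3′ libraries do not follow gene length, so levels are compared between samples of a gene and not between genes.

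Erythroid progenitors descend from progenitors shared with megakaryocytes, pass the burst-forming and colony-forming stages, and then become erythroblasts that fill with hemoglobin. KLF1 is the transcription factor that switches on the red cell program, carbonic anhydrase 1 (Car1) marks committed erythroid progenitors, and Rhd (an Rh blood group protein), Cldn13 (a claudin), Ctse (the protease cathepsin E) and Fam132a (a secreted C1q/TNF family protein) come up as the program proceeds. IFNα binds a receptor present on most cells. Its signal passes through the JAK kinases to transcription factors that enter the nucleus and bind an interferon-stimulated response element in the promoters of interferon-stimulated genes (ISGs), whose core has the letters GAAA, any 2 bases, and GAAA again.

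The promoters of 3 ISGs that carry the response at 3 h and of the beta-globin gene Hbb-bs are given as windows that hold the motif searched for. They run from 250 bases before to 50 bases after the RefSeq transcription start on GRCm38.p6, read 5′ to 3′ on the strand of the gene, and capitals mark GAAA, any 2 bases and GAAA, or the reverse complement, in the ISGs and CCACACCC, a motif bound by KLF1, in Hbb-bs. Ifit1 lies on chromosome 19 and its window is chr19:34640639-34640938 on the plus strand. Isg15 lies on chromosome 4 with the window chr4:156200769-156201068, Rsad2 on chromosome 12 with chr12:26456403-26456702 and Hbb-bs on chromosome 7 with chr7:103827879-103828178, all on the minus strand.
Ifit1: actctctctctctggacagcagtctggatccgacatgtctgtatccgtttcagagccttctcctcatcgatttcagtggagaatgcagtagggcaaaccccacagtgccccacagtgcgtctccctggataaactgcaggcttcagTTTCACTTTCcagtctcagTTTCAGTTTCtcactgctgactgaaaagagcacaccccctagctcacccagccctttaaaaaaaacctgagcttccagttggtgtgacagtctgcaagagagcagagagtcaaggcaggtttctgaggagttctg
Isg15: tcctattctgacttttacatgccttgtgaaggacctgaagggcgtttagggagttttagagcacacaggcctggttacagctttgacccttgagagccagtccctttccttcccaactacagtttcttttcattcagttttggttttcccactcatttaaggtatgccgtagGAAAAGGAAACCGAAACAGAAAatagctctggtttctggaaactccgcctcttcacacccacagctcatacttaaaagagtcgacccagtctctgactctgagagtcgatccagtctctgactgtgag
Rsad2: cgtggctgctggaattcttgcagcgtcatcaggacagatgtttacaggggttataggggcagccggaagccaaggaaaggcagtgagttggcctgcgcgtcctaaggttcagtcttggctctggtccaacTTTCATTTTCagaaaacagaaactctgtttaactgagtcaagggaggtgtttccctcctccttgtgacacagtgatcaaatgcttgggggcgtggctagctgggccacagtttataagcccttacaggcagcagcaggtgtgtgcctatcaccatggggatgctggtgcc
Hbb-bs: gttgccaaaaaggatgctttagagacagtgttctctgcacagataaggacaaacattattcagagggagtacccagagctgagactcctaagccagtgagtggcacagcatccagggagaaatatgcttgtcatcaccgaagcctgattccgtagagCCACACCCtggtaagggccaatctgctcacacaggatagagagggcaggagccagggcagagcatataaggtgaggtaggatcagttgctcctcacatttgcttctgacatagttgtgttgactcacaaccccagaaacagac

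The Ifit1 window held 2 matches that began 104 and 85 bases before the start, Isg15 held 3 that overlap and begin 78, 72 and 66 bases before it, and Rsad2 held 1 at 120 bases. On either strand, this motif of GAAA, any 2 bases and GAAA stood in the window of 30 of the 63 genes of the ISG list that have an entry (47.6%), and in 57 of 217 genes that rose over 2-fold at 3 h (26.3%). It stood in 1079 of all 27025 genes with an entry (3.99%) and in 243 of 6266 such genes among those tested (3.88%). CCACACCC stood in the windows of 1106 of the 27025 genes (4.09%), Hbb-bs among them at 93 bases before the start. Not all windows that were read held a match. Among ISGs, Cxcl10 held 1 at 213 bases and Ifi44 and Irf7 held none, and the globin genes Hba-a1, Hba-a2 and Hbb-bt held no CCACACCC. These matches describe letters in the windows and are not binding sites seen in the data.

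Erythroid genes that the rule did not use were common in the 722 cells. Gata1, the founding transcription factor of the lineage, had a UMI in 92.5% of the 722 cells and in 22.7% of all other kept cells, and the erythropoietin receptor gene Epor in 74.7% and 9.60%. Against cells that carried Klf1 and Car1 but fewer than 2 of the further genes, Gata1 stood in controls at 145 against 131 CPM and Epor at 86.7 against 33.3, so Gata1 marks erythroid cells and does not set the late ones apart. Slc4a1, the band 3 anion exchanger of mature red cells, had a UMI in only 0.831% of the 722 cells. Hba-a1 and Hbb-bs, an alpha- and a beta-globin gene, had a UMI in 24.1% and 14.3% of the 722 cells. They were compared with a set of 3853 kept cells with a UMI of Hlf, a stem cell gene, called Hlf cells here. This set did not hold every kept cell with Hlf, which had a UMI in 42.0% of all other kept cells and 4.99% of the 722. In the Hlf cells, Hba-a1 and Hbb-bs had a UMI in 2.98% and 4.65%. At this level, free RNA in the droplets may be counted. Hbb-bt, another beta-globin gene, had a UMI in 20.9% of the 722 cells and in 17.3% of the Hlf cells. Its pooled level in the 722 cells was 237 CPM in controls and 17.5, 27.0 and 51.8 at 3, 24 and 72 h, against 36.6, 39.4, 56.0 and 51.0 in the Hlf cells, so that at 3 h and 24 h it lay below its level in these Hlf cells. The median depth was 27879 UMIs per cell in the 722 cells, 13734 in the Hlf cells and 15860 in all others, and the part of depth in the gaps between these shares was not tested. Outside the rule's 722 cells, Fam132a had a UMI in 45.0% of cells, Car1 in 20.7%, Klf1 in 13.6%, Ctse in 10.7%, Rhd in 0.676% and Cldn13 in 0.257%, so Rhd and Cldn13 were the least common of the rule's genes elsewhere. In control mice, the genes with the largest ratio to other cells, beside the rule's own and the globins, included Sphk1 (sphingosine kinase 1, 96.3 against 0.270 CPM), Add2 (β-adducin of the membrane skeleton), Ermap (a red cell surface protein), Mt2 (a metallothionein), Slc25a21 (a mitochondrial carrier), Crip2 and Tspan8. These describe the cells that the rule chose and were not tested.

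Transcripts of other lineages were found among the 722 cells. The summed neutrophil and monocyte markers stood at 134, 147, 467 and 124 CPM in control mice 1 to 4, at 34.3, 84.8, 65.2 and 69.3 at 3 h, at 109, 1270, 257 and 284 at 24 h and at 1293, 86.7, 133 and 261 at 72 h. The 24 h mouse 2 and the 72 h mouse 1 stood apart, while the other 14 mice lay at or below 467. All 4 mice at 3 h lay below all controls. Prtn3, a neutrophil granule protease, gave 28.8% of these UMIs, and Mpo, the myeloperoxidase of granulocyte precursors, had a UMI in 49.3% of the 722 cells against 70.2% of all others. Pooled per group from control to 72 h, megakaryocyte markers summed to 20.6, 13.7, 35.8 and 24.1 CPM, and basophil, mast cell and eosinophil markers to 31.6, 4.73, 46.4 and 25.2. The stem cell list summed to 55.3, 46.3, 52.9 and 57.8 with 90.7% from Mllt3. But Mllt3 had a UMI in 64.1% of the 722 cells against 31.0% of all other kept cells, so this sum does not mark stem cells here. The rest of that list stood in controls at 1.54 (Hlf), 0.840 (Ly6a), 0.420 (Mecom) and 0 CPM (Procr and Fgd5). Of 3 megakaryocyte markers tested with edgeR, Pf4 (platelet factor 4) rose at 24 h by 1.25 on the log2 scale (adjusted p = 0.0203), a call lost without control mouse 1. Nkg7, the 1 tested gene of the lymphoid list, rose at 24 h by 1.12 (adjusted p = 0.00206). It had a UMI in 56.9% of the 722 cells and in 78.4% of all other kept cells, so it does not single out lymphoid cells here. Of 6 tested neutrophil and monocyte markers 0 passed at each time, with medians of -1.67, 0.96 and 0.79 at 3, 24 and 72 h. But with the rule applied after thinning to 5000 UMIs, 4 of 4 tested rose at 24 h, with a median of 3.45. The part of these markers' cells in the other changes was not tested at any time. The lymphoid list summed to 57.7, 35.9, 121 and 76.8 with 99.7% from Nkg7 and with Cd3e and Ms4a1 at 0. In controls its other genes, Cd79a and Ebf1, stood at 0.140 and 0 CPM. Markers of lymphoid-primed multipotent progenitors summed to 3.78, 1.42, 4.54 and 3.22. Macrophage markers were at 0 but for 0.478 CPM at 24 h, with Adgre1, C1qa and C1qc at 0 in all groups. Of 98 barcodes found in more than 1 library, 3 were kept in more than 1, none of them as late erythroid cells in both, and 3 of the 722 cells had a barcode seen in another library. Doublets of cells of 1 mouse carry a single hashtag and could not be removed, and their part in the results was not tested.

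The 722 cells differed in how many of the rule's 4 further genes they carried, a count that follows depth, with a median of 18410 UMIs in control cells with 2 of them, 26297 with 3 and 50030 with 4. In control mice, 103 of 204 cells carried all 4 of Rhd, Cldn13, Ctse and Fam132a, against 33 of 87 at 3 h, 69 of 257 at 24 h and 70 of 174 at 72 h. Per mouse these were 65.4, 45.6, 44.4 and 60.0% of the cells in controls, 57.1, 37.5, 43.8 and 11.8% at 3 h, 22.5, 29.3, 26.7 and 26.8% at 24 h and 42.0, 47.5, 40.4 and 29.7% at 72 h. All 4 mice at 24 h lay below all 4 controls, while at 3 h and 72 h the groups overlapped. These numbers rest on the rule's own genes and were not tested. Among control cells, the 4 adult globin genes made up 0.00081% of UMIs in cells with 2 of the 4 genes, 0.00224% with 3 and 0.179% with all 4. In treated cells with all 4 genes, the globin share was 0.0157% at 3 h, 0.0233% at 24 h and 0.0309% at 72 h. At the edge of the rule in control mice, cells with 2 of the 4 genes had 3801 CPM of Car1, and cells just outside with 1 of the 4 genes had 1803 CPM and a median of 12544 UMIs.

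Most globin UMIs were held by few cells. Over 0.1% of UMIs were globin in 19 control cells and in 1, 4 and 7 cells at 3, 24 and 72 h, and the highest cell reached 6.96% in controls and 0.126, 0.266 and 0.362% at 3, 24 and 72 h. The 10 control cells with the most globin held 83.6% of the 8756 globin UMIs of that group. Across 196 control cells of 1 library, thinned to 10000 UMIs each to take out depth, Cldn13 followed globin most closely among 4622 genes with a Spearman coefficient of 0.75, and Ctse and Fam132a had 0.67 and 0.65. Prdx2 (a peroxiredoxin abundant in red cells), Fth1 (ferritin heavy chain), Hebp1 (a heme-binding protein), Mgst3 (a microsomal glutathione transferase) and Lmna (lamin A/C) each had 0.69. Cmtm7 had the lowest coefficient of -0.67, followed by Cyba (a subunit of the NADPH oxidase) at -0.65 and Apoe (apolipoprotein E) at -0.63. After thinning, 133 of the 196 cells had no globin UMI and 18 had 10 or more, so the coefficients rest on few cells with much globin. Cldn13, Ctse and Fam132a are genes of the rule that chose the cells. All these coefficients are descriptions over cells of 4 mice.

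**Figure D1:**
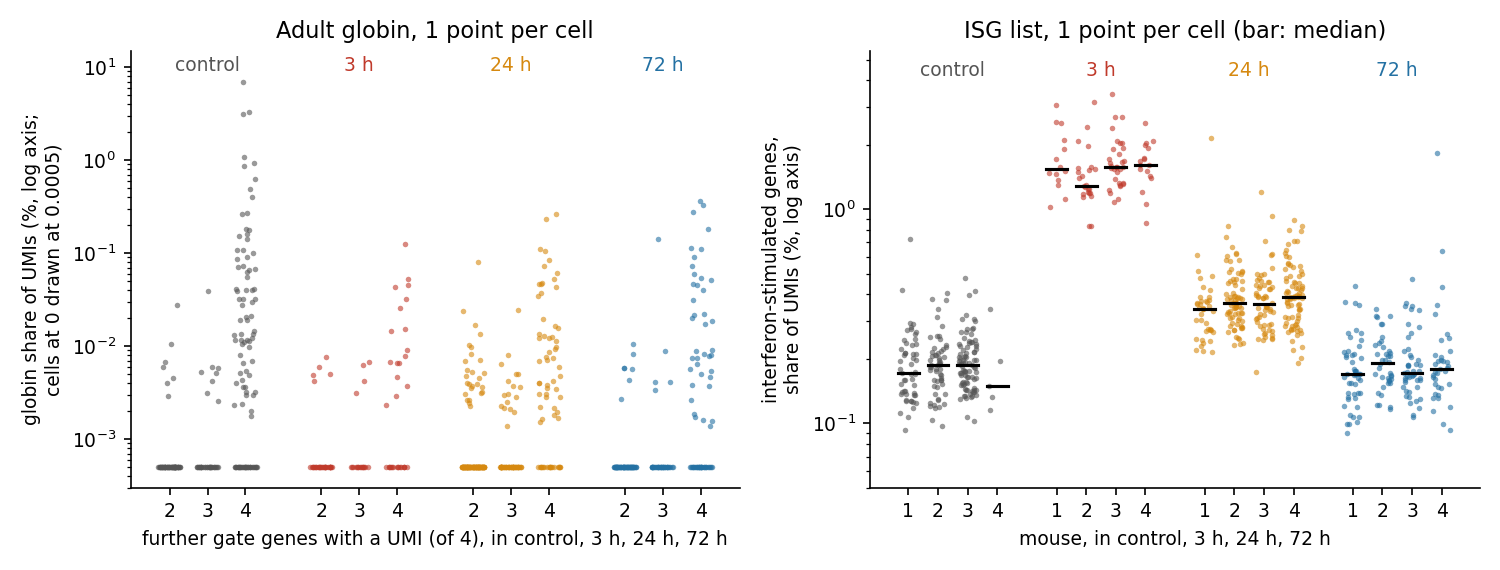
Single cells that met the rule: globin share of UMIs in percent by how many of Rhd, Cldn13, Ctse and Fam132a a cell carried (left, log axis, cells at 0 drawn at 0.0005), and ISG share of UMIs in percent by mouse (right, log axis, bars are medians). The cells with most globin carry all 4 genes, up to 6.96% in control mice, and all 87 cells at 3 h lie above the highest control cell for ISGs.

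The first question was whether IFNα changed how many late erythroid progenitors were recovered and how much globin RNA they held. They made up 6.29, 7.46, 10.9 and 8.62% of kept cells in control mice 1 to 4, 4.24, 6.56, 5.22 and 4.83% at 3 h, 6.53, 6.05, 8.66 and 8.95% at 24 h and 6.45, 8.18, 7.68 and 6.46% at 72 h. Before any thinning, only the 3 h mice were mostly below the controls, with 3 of 4 under the lowest control. The means were 8.32% ± 1.97 (SD, n = 4) in controls and 5.21% ± 0.98 at 3 h (exact permutation p = 0.0571), 7.55% ± 1.47 at 24 h (exact p = 0.6) and 7.19% ± 0.88 at 72 h (exact p = 0.371). None of these passed. The smallest two-sided p that 4 against 4 mice can give is 0.0286. The 3 h difference was -2.43 percentage points with at least 3 of the 4 genes required and -5.28 with at least 1, and each of these reached an exact p of 0.0286. All these shares count the rule's own genes, so their p values are descriptions and nothing is concluded from them. Pooled Rhd stood at 225 CPM in controls and 116 at 3 h, Fam132a at 759 and 462, and Car1 at 4752 and 4839. The rule needs UMIs of at least 4 genes and can therefore depend on depth, whose part in these differences was not tested. The kept cells held 18151 ± 1563 UMIs in controls, 12093 ± 859 at 3 h, 18988 ± 999 at 24 h and 14842 ± 580 at 72 h (median per mouse, mean ± SD). Cells were also thinned to an equal depth, with the cells below that depth left out. Thinned to 5000 UMIs, the share was 2.44% ± 1.75 in controls, 1.37% ± 0.83 at 3 h, 1.42% ± 0.32 at 24 h and 2.43% ± 0.92 at 72 h. Thinned to 10000 UMIs, it was 7.04% ± 2.14, 4.48% ± 2.44, 4.36% ± 1.17 and 5.59% ± 1.21, with differences from control of -2.68 percentage points at 24 h (exact p = 0.143) and -2.56 at 3 h (exact p = 0.171). At 10000 UMIs, 698 of 827, 646 of 764, 687 of 825 and 45 of 58 kept cells entered in control mice 1 to 4. In the 3 h mice 219 of 330, 215 of 366, 368 of 613 and 240 of 352 entered, so a larger part was left out there. Of the cells with both Klf1 and Car1, the late cells made up 52.6% ± 10.2, 44.7% ± 1.55, 48.6% ± 2.53 and 47.2% ± 6.68.

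The 4 adult globin genes together took 0.224, 0.00759, 0.124 and 0.0584% of the UMIs in control mice 1 to 4. They took 0.0123, 0.00565, 0.0124 and 0.00111% at 3 h, 0.0140, 0.0110, 0.0137 and 0.00488% at 24 h and 0.0278, 0.0147, 0.0199 and 0.00705% at 72 h. 3 of 4 controls stood above all 12 treated mice, and control mouse 2 stood within the treated range. The means were 0.103% ± 0.0933 in controls, 0.00786% ± 0.00549 at 3 h, 0.0109% ± 0.00425 at 24 h and 0.0173% ± 0.00871 at 72 h, none of which passed the exact permutation test (p = 0.0857, 0.114 and 0.114). The differences from control were -0.0956, -0.0926 and -0.0861 percentage points. Without control mouse 1 they were -0.0555, -0.0525 and -0.0460 (exact p = 0.0857, 0.114 and 0.143). Without control mouse 2 they were -0.128, -0.125 and -0.118 (exact p = 0.0286 each). The late cells held a median of 32709 ± 6546 UMIs in controls, 23549 ± 3759 at 3 h (exact p = 0.0571), 29681 ± 2924 at 24 h (exact p = 0.571) and 25663 ± 858 at 72 h (exact p = 0.0286, with no overlap of the mice). At 72 h the exact p was 0.0571 without any 1 of the 72 h mice and 0.0286 without any 1 control. Adjusted over the 9 comparisons of share, globin and UMIs, no exact p was below 0.171.

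**Figure D2:**
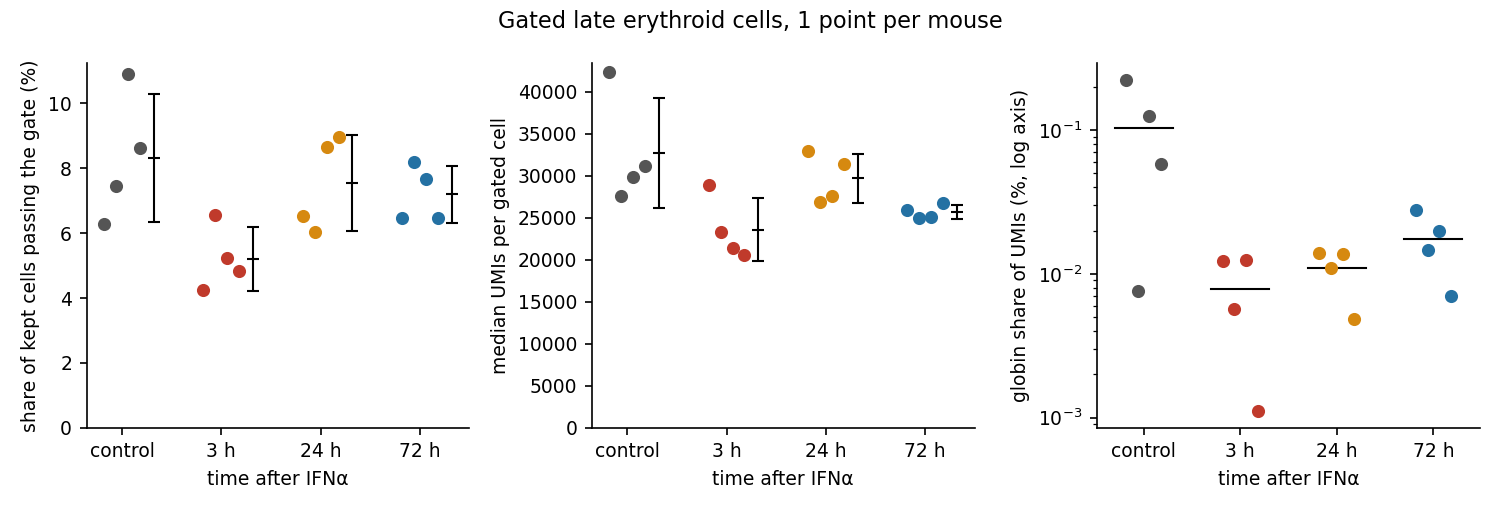
Late erythroid progenitors in each of 16 mice: share of kept cells in percent, median UMIs per cell (bars are mean ± SD, n = 4) and globin share of UMIs in percent (log axis, lines are means). Control mouse 2, at 0.00759% globin, lies among the treated mice, and the 72 h mice lie below all controls for UMIs.

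Fewer genes differed from control at 72 h than at 3 h or 24 h. UMIs were summed over the late cells of each mouse and 8093 genes were tested with edgeR's quasi-likelihood test, with a Benjamini-Hochberg adjusted p under 0.05 as the threshold for rose or fell. At 3 h, 683 genes rose (8.44% of those tested) and 227 fell (2.8%), and past 2-fold these were 290 (3.58%) and 52 (0.643%). At 24 h, 515 rose (6.36%) and 340 fell (4.2%), with 150 (1.85%) and 42 (0.519%) past 2-fold. At 72 h, 271 rose (3.35%) and 155 fell (1.92%), with 52 (0.643%) and 18 (0.222%) past 2-fold. More genes changed at 3 h (910) than at 24 h (855), but this order turned with edgeR's likelihood ratio test (985 and 1046) and without the cells of highest UMIs (879 and 959). The 3 comparisons share the same 4 control mice. Scaling by library size alone gave 475 rises and 1179 falls at 3 h, where it moves the median log2 change of all genes from -0.03 to -0.23, and 213 and 392 at 72 h. Log2 changes at 3 h are thus relative to the median gene. Without control mouse 4, with its 5 cells, 917, 846 and 415 genes changed at 3, 24 and 72 h in place of 910, 855 and 426. At 24 h 551 changed without mouse 2 of that time and 453 without control mouse 1. At 72 h 301 changed without mouse 1 of that time, 281 without mouse 2, 232 without mouse 4, and 233 and 275 without control mice 1 and 3. Without control mouse 1, 640, 306 and 170 of 8202 tested genes rose and 137, 147 and 63 fell at 3, 24 and 72 h. The shares over all tested genes given above are the background for the counts of each list below.

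ISGs led the response at 3 h: 68 of 71 tested ISGs rose and none fell, with a median log2 change of 3.74 against -0.03 for all genes, also with Mx1 set at its bound. Isg15 encodes a ubiquitin-like modifier and lies at chr4:156199424-156200818 (GRCm38, gene positions from GENCODE vM21). It stood at 42.5, 13.3, 12.6 and 0 CPM in control mice, 2339, 2081, 2396 and 2035 at 3 h, 225, 107, 118 and 156 at 24 h and 13.7, 22.4, 9.44 and 34.2 at 72 h. All mice at 3 h and 24 h exceeded all controls, and the 72 h mice were mixed with them. The log2 change was 6.67 ± 0.26 (SE, adjusted p = 3.00e-18) at 3 h, 2.77 ± 0.28 at 24 h and -0.21 ± 0.41 at 72 h, which did not pass. Ifit1 (chr19:34640871-34650009) binds foreign RNA caps. It stood at 2.66, 0, 0.971 and 0 CPM in controls, 494, 339, 339 and 469 at 3 h, 18.1, 4.75, 8.88 and 13.8 at 24 h and 1.19, 0.861, 0.726 and 9.50 at 72 h, and changed by 8.28 ± 0.35 and 3.1 ± 0.58 on the log2 scale at the first pair of times. Rsad2, the antiviral enzyme viperin, rose by 6.58 ± 0.29 at 3 h and 1.85 ± 0.43 at 24 h, a change that was 3.11 without control mouse 1 and lost the call without control mouse 3 (1.29). Mx1, a GTPase that blocks viral replication, had no UMI in the controls and 106 UMIs at 3 h, at least 119-fold higher when the floor of 3 UMIs is taken over the control group. At 24 h and 72 h it had a UMI in only 2 and 1 of 4 mice. Cxcl10, a chemokine, had 1 UMI in the controls and 130, 15 and 0 at 3, 24 and 72 h.

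Irf7, a transcription factor that drives type I interferon genes, stood at 10.2, 12.3, 7.12 and 13.3 CPM in controls, 352, 278, 459 and 425 at 3 h, 71.6, 72.6, 76.9 and 73.5 at 24 h and 9.52, 11.2, 5.81 and 7.60 at 72 h. It rose by 5.29 ± 0.18 at 3 h and kept a rise of 2.93 ± 0.19 at 24 h, 7.60-fold, with no overlap with the controls. Usp18, which removes ISG15 and dampens the receptor, rose by 5.77 ± 0.25 and 1.83 ± 0.32. Bst2 (tetherin, which holds virus particles at the membrane) rose by 3.05 ± 0.09 and 1.21 ± 0.09. Among other ISGs at 3 h, Iigp1 and Ifi44 rose by 8.30 and 7.97, and Gbp3 and Ifi203 by 4.95 and 5.53. With 1 mouse left out in turn, the 3 h change lay between 7.81 and 10.01 for Iigp1 and between 7.85 and 9.24 for Ifit1. Several of these families (Oas, Ifit, Gbp, Ifi2) have near-identical members whose shared reads make the value of a single copy uncertain.

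Few ISGs passed at 72 h. 51 of 71 ISGs rose at 24 h with a median log2 change of 1.22, and at 72 h 1 rose and 1 fell, with a median of 0.08. The rise at 72 h was in Oas1a, which makes the second messenger of RNase L (1.09 ± 0.32, adjusted p = 0.0439), and the fall in Isg20, an exonuclease (-0.47 ± 0.13, adjusted p = 0.0301). Isg20 stood above control in cells with 2 or 3 of the 4 further genes (0.36) and below it in cells with all 4 (-0.54), with no call in either. With 1 of the 8 mice left out in turn, the Oas1a call was lost for 6 of them, all but control mouse 3 and the 72 h mouse 2 (0.93 to 1.09), and the Isg20 call for 5, control mice 1 and 3 and the 72 h mice 1, 3 and 4 (-0.47 to -0.33). Ifi27l2a followed another course, at 0, 0, 1.62 and 0 CPM in controls, 0, 3.79, 4.33 and 0 at 3 h, 15.4, 34.6, 28.6 and 32.4 at 24 h and 1.78, 0.861, 0.726 and 1.90 at 72 h. It did not pass at 3 h (1.83 ± 1.05) and rose at 24 h by 5.25 ± 0.45, with no overlap of the 24 h mice with controls. Only control mouse 3 had a UMI of it, so the size of this change is uncertain, and it lay between 4.78 and 8.26 with 1 mouse left out in turn, highest without that mouse. Per cell, the listed ISGs took a median of 0.185% of UMIs in controls and 1.54, 0.366 and 0.174% at 3, 24 and 72 h. The highest control cell had 0.723%. All 87 cells at 3 h were above it, with 9 of 257 at 24 h and 1 of 174 at 72 h, so no late cell at 3 h lay within the control range. In cells with all 4 further genes and in cells with 2 or 3 of them, tested separately, 60 of 62 and 63 of 67 tested ISGs rose at 3 h and 35 and 34 at 24 h. This split, here and in what follows, uses the rule's own genes, whose number per cell differs between the groups, so its values are descriptions and nothing rests on them. Over all genes, 459 of 6802 tested rose and 103 fell at 3 h in cells with all 4, and 409 of 6282 rose and 87 fell in cells with 2 or 3.

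Genes of antigen presentation by MHC class I rose at both 3 h and 24 h. Of 23 tested genes, 18 rose at 3 h, 17 at 24 h and 3 at 72 h, none fell, and the median log2 changes were 1.20, 0.76 and 0.18. H2-K1, a classical class I heavy chain (chr17:33996017-34000347), stood at 415, 586, 586 and 466 CPM in controls, 707, 687, 803 and 894 at 3 h, 1017, 1088, 976 and 1037 at 24 h and 556, 663, 695 and 678 at 72 h. It was highest at 24 h, where all mice exceeded all those at 3 h. Its log2 change was 0.56 ± 0.10 at 3 h, 0.98 ± 0.09 at 24 h and 0.31 ± 0.09 at 72 h, where the adjusted p of 0.0502 did not pass. H2-D1 rose by 0.40 ± 0.08 and 0.73 ± 0.07, and B2m, the light chain shared by all class I molecules, by 0.67 ± 0.07 and 0.76 ± 0.07. Nlrc5, the transactivator of class I genes, rose by 2.93 ± 0.36 at 3 h, and Psmb8, an immunoproteasome subunit, by 1.49 ± 0.13. The nonclassical H2-T24 and H2-T22 rose by 3.66 ± 0.34 and 2.63 ± 0.15. The 3 that rose at 72 h were H2-Q4 (1.19 ± 0.18), H2-Q6 (1.09 ± 0.22) and H2-Q7 (0.63 ± 0.15), of which H2-Q7 stood at 65.6, 109, 98.4 and 26.6 CPM in controls and 109, 151, 131 and 157 at 72 h. Its call at 72 h was lost without control mouse 1 (0.46) or without the 72 h mouse 2 or 4 (0.57 and 0.56). The Q genes are near-identical copies, and the split of reads among them is uncertain.

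Of 9 tested genes of the caspase, gasdermin and RIPK3 pathways, 5 rose at 3 h, 5 at 24 h and 0 at 72 h and none fell, with medians of 1.14, 0.80 and 0.32. Zbp1, a sensor of Z-form nucleic acids upstream of RIPK3, stood at 1.77, 3.58, 0.648 and 0 CPM in controls, 144, 119, 183 and 228 at 3 h, 15.4, 12.5, 18.3 and 17.1 at 24 h and 0.595, 1.72, 0.726 and 4.75 at 72 h, and rose by 6.50 ± 0.30 and 3.11 ± 0.39. Its 3 h and 24 h mice lay above all controls. At 3 h the inflammatory caspase Casp4 rose by 2.73 ± 0.57, Casp1, another, by 1.79 ± 0.56, the pore-forming Mlkl by 1.76 ± 0.38 and Gsdmd, the gasdermin that caspase cleavage turns into a pore, by 1.14 ± 0.34. With 1 of the 8 mice left out in turn, Casp1 lost the call for 5, control mice 1 and 3 and the 3 h mice 1, 2 and 3 (1.66 to 1.93), and Gsdmd for 4, control mice 1 and 2 and the 3 h mice 2 and 3 (0.96 to 1.03). Without control mouse 1, 3 of the 9 genes rose at 3 h and 2 at 24 h. In cells with all 4 further genes these were 3 and 1 of 7 tested, in cells with 2 or 3 1 and 2 of 8, and with the rule applied after thinning to 5000 UMIs 2 and 1 of 5, where the median at 3 h was -0.05. Of 19 genes of p53 signaling and apoptosis, 3 rose at 3 h, among them Tnfsf10 (the death ligand TRAIL, 3.28 ± 0.35) and Casp8 (1.59 ± 0.18), with 1 rise and 1 fall at 24 h and 1 rise at 72 h. No gene of this list passed at 24 h or 72 h without control mouse 1.

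**Figure D3:**
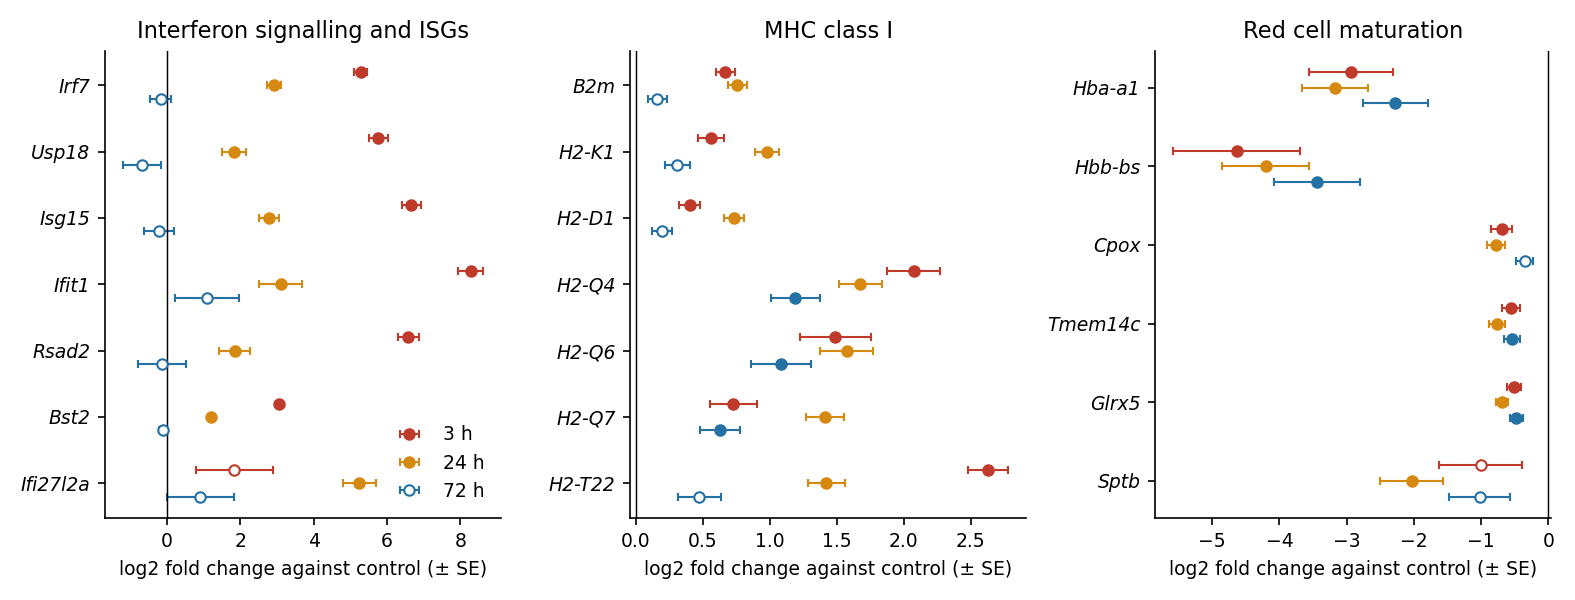
Log2 change from control (± SE, edgeR, 4 mice a group) of 20 named genes at 3, 24 and 72 h in late erythroid progenitors, in panels for ISGs, MHC class I and red cell genes, filled where the adjusted p was under 0.05 and open otherwise. ISGs other than Ifi27l2a are highest at 3 h (Isg15 6.67), H2-K1 at 24 h (0.98), and the 6 red cell genes drawn lie below 0 at all 3 times. Of 21 tested membrane and skeleton genes, 3 rose at 3 h, 1 at 24 h and 1 at 72 h, and none of these is drawn.

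Among the red cell genes that were tested, the globins changed most. All 4 tested globin genes fell at 3 h, 24 h and 72 h, with median log2 changes of -3.64, -3.34 and -2.57. Hbb-bs (chr7:103826534-103828096) stood at 754, 8.18, 346 and 79.8 CPM in controls, 34.7, 1.89, 15.9 and 3.08 at 3 h, 19.4, 10.8, 40.9 and 6.19 at 24 h and 52.9, 26.7, 25.4 and 12.4 at 72 h. Control mouse 2 lay among the treated mice, so the groups overlapped although edgeR gave -4.64 ± 0.94 (adjusted p = 7.07e-04) at 3 h, -4.20 ± 0.65 at 24 h and -3.44 ± 0.64 at 72 h. Hba-a1 (chr11:32283511-32284465) stood at 745, 34.8, 477 and 239 CPM in controls, 80.1, 37.9, 73.7 and 3.08 at 3 h, 40.2, 67.8, 55.2 and 16.7 at 24 h and 117, 64.5, 102 and 36.1 at 72 h and fell by 2.94, 3.18 and 2.28 on the log2 scale. Hbb-bs with Hbb-bt and Hba-a1 with Hba-a2 are near-identical pairs whose shared reads may be split between copies. In cells with all 4 further genes alone, 4, 4 and 3 of the globin genes fell at 3, 24 and 72 h, and the same counts held without control mouse 1. The falls were smaller without that mouse, with log2 changes of -3.68, -3.24 and -2.48 for Hbb-bs and -2.32, -2.55 and -1.66 for Hba-a1. In cells with 2 or 3 of them no globin gene passed the filter on low counts, so none was tested there.

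Of 17 tested genes of heme synthesis, 5 fell at 3 h, 12 at 24 h and 2 at 72 h and none rose, with medians of -0.56, -0.61 and -0.33. Cpox, which makes protoporphyrinogen (chr16:58670292-58717636), stood at 277, 188, 233 and 293 CPM in controls, 214, 138, 143 and 89.4 at 3 h, 160.0, 128, 139 and 129.9 at 24 h and 183, 174, 206 and 181 at 72 h. At 24 h all mice lay below all controls, and at 3 h 1 control lay within the range. The log2 change was -0.70 ± 0.15 (adjusted p = 0.00166), -0.78 ± 0.13 (adjusted p = 9.04e-05) and -0.35 ± 0.13 (adjusted p = 0.114, not passing). Tmem14c, which brings porphyrin into the mitochondrial matrix, fell by 0.56, 0.77 and 0.54, where the 72 h call was lost without control mouse 1 (-0.44). Fam210b, a mitochondrial protein of the same process, fell by 0.89 at 24 h, a call lost without control mouse 1 (-0.55) or the 24 h mouse 4 (-0.80), and at 3 h by 1.47, lost without the 3 h mouse 2 (-1.19). In cells with all 4 further genes the Cpox changes were -0.56, -0.40 and -0.21, and in cells with 2 or 3 they were 0.02, -0.07 and -0.02. There, Tmem14c stood at 0.06 at 3 h, with no call. In cells with all 4, 3, 2 and 0 of 17 tested heme genes fell, beside 103, 49 and 40 of 6802 over all genes. In cells with 2 or 3, 0, 0 and 0 of 14 fell, where falls were also few among all genes (87, 41 and 26 of 6282). Without control mouse 1, 4, 7 and 0 of the heme genes fell, beside 137, 147 and 63 of 8202 tested genes.

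Of 17 genes of iron handling, 2 rose and 2 fell at 3 h, 7 fell at 24 h and 2 at 72 h, with medians of -0.20, -0.31 and -0.14. Without control mouse 1, 1 rose and 1 fell at 3 h, 3 fell at 24 h and 1 at 72 h, and at 24 h 2 of 17 fell in cells with all 4 further genes and 1 of 15 tested in cells with 2 or 3. Glrx5, which passes iron-sulfur clusters on, fell at each time by 0.51, 0.69 and 0.48, with no overlap with the controls. Fth1, the ferritin heavy chain, fell by 0.53 at 24 h. Of 21 membrane and skeleton genes, 3 rose and 6 fell at 3 h, 1 rose and 9 fell at 24 h and 1 rose at 72 h, with medians of -0.31, -0.42 and -0.13. Sptb, the beta-spectrin of the red cell skeleton, stood at 17.3, 5.11, 11.7 and 46.6 CPM in controls, 16, 0, 8.67 and 0 at 3 h, 2.68, 2.16, 3.95 and 3.27 at 24 h and 8.92, 7.74, 5.08 and 1.90 at 72 h. All 24 h mice lay below all controls, and the log2 change was -2.03 ± 0.47 (adjusted p = 0.00411), while 3 h and 72 h did not pass. In cells with all 4 further genes 2 of 20 tested membrane genes rose and 3 fell at 3 h and 1 fell at 24 h, and in cells with 2 or 3 of them 2 of 17 rose and 1 fell at 3 h and 1 fell at 24 h. Trim10, an erythroid-restricted TRIM protein, stood at 13.3, 6.64, 10.7 and 20.0 CPM in controls and 2.67, 1.89, 1.44 and 0 at 3 h, a log2 change of -2.70 ± 0.76 (adjusted p = 0.0161) that lost the call without the 3 h mouse 3 (-2.65).

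Of 23 tested transcription factors of erythroid identity, 1 rose and 2 fell at 3 h (4.35 and 8.70%, against 8.44 and 2.8% of all genes). At 24 h 2 rose and 2 fell (8.70% each, against 6.36 and 4.2%), and at 72 h 2 rose (8.70%, against 3.35%). The medians were -0.11, -0.08 and 0.05. In cells with 2 or 3 of the further genes 1 of 21 tested rose and 5 fell at 3 h, with a median of -0.34, and in cells with all 4 1 of 22 rose and 1 fell. These counts became 1 and 1 at 3 h, 1 rise at 24 h and 0 at 72 h without control mouse 1. Nfe2l1, a stress-responsive factor, rose by 1.14 ± 0.23 at 3 h, and Lmo2, a bridge in the GATA1 complex, fell by 0.40 at 3 h, a call lost without the 3 h mouse 2 (-0.34). Of 15 genes of erythropoietin and KIT signaling, 1 fell at 3 h (Ptpn6, the phosphatase SHP-1, by 0.83), 4 rose at 24 h and 1 at 72 h, and without control mouse 1 these rises numbered 1 and 0. In 2 panels of 16 erythroid and 14 interferon genes, 1 erythroid gene rose and 8 fell at 3 h, 10 fell at 24 h, and 1 rose and 5 fell at 72 h, while 12, 11 and 0 interferon genes rose. Without control mouse 1, 6, 8 and 3 erythroid genes of the panel fell, in cells with all 4 further genes 6, 6 and 4 of 16, and in cells with 2 or 3 1, 0 and 0 of 12 tested.

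Cyclin D2 was the cell cycle gene with the clearest change. Ccnd2, which drives entry into S phase, stood at 85.5, 113, 101 and 99.8 CPM in controls, 296, 328, 338 and 401 at 3 h, 148, 145, 151 and 147 at 24 h and 129.7, 107, 93.7 and 109 at 72 h. No mouse at 3 h or 24 h overlapped with the controls, and the rises were 1.76 ± 0.11 (adjusted p = 1.91e-13) and 0.56 ± 0.10. At 24 h Ccnd2 did not pass in cells with all 4 further genes (0.62), in cells with 2 or 3 (0.15) or with the rule applied after thinning to 5000 UMIs (0.46), while at 3 h it rose in each. Of 18 cyclins and inhibitors, 2 rose and 3 fell at 3 h, 2 rose and 3 fell at 24 h and 1 rose at 72 h, and without control mouse 1, 1 fell at 3 h. At 24 h 0 of 16 passed in cells with all 4 further genes, 0 of 16 in cells with 2 or 3 and 0 of 17 with the thinned rule. Of 53 G2/M genes, 1 rose and 8 fell at 3 h, 10 fell at 24 h and 5 at 72 h, with medians of -0.21, -0.22 and -0.16. The falls numbered 5, 6 and 0, with no rise, without control mouse 1, in cells with all 4 further genes 6, 11 and 0 of 52 tested fell, and in cells with 2 or 3 1, 1 and 2 of 46. Ccnb1, the cyclin of mitotic entry, fell by 0.89 at 3 h, and Ube2c, a ubiquitin-conjugating enzyme of mitotic exit, by 0.88 at 24 h. Of 45 S phase genes, 4 rose (8.89%) and 1 fell (2.22%) at 3 h, near the 8.44% and 2.8% of all tested genes. At 24 h 1 S phase gene rose and 1 fell, and at 72 h 2 rose and 2 fell. With control mouse 1 left out, 7 rose and 0 fell at 3 h and 1 rose and 1 fell at 72 h. Their median at 3 h was 0.07 and turned to -0.13 with scaling by library size alone. Hells, a chromatin remodeler of S phase, rose by 0.88 ± 0.17 at 3 h and Mcm7 fell by 0.40 at 72 h, a call lost without control mouse 1 (-0.34).

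Of 16 glycolysis genes, 4 rose and 1 fell at 3 h, 6 rose at 24 h and 2 rose and 1 fell at 72 h, among them Hk2 (2.51 ± 0.33), the entry enzyme hexokinase 2, and Pgk1 (1.97 ± 0.21), phosphoglycerate kinase, at 3 h. Without control mouse 1, 4 rose and 0 fell at 3 h, 1 rose at 24 h and 1 rose and 1 fell at 72 h, and at 24 h 2 of 15 tested rose in cells with all 4 further genes and 1 of 14 in cells with 2 or 3. Of 18 antioxidant genes, 3 rose and 3 fell at 3 h, 4 fell at 24 h, and 1 rose and 3 fell at 72 h, and the falls numbered 1, 2 and 1 without control mouse 1. Of 11 immediate early genes, 0 passed at 3 h, 4 rose at 24 h and 1 at 72 h, with Egr1 at 1.51 ± 0.33 at 24 h. With control mouse 1 left out, 2 rose and 1 fell at 24 h and 0 rose at 72 h. This list is also sensitive to handling, and its part here was not tested. Of 18 genes of the heat shock and unfolded protein responses, 2 rose and 1 fell at 3 h, 1 fell at 24 h (3 without control mouse 1) and 0 passed at 72 h. Of 17 cholesterol synthesis genes, 0 passed at 3 h, 1 rose at 24 h (Mvk, mevalonate kinase, 0.95 ± 0.25, lost without control mouse 1 at 0.84) and 0 passed at 72 h. Of 82 OXPHOS genes, 29 rose and 5 fell at 3 h with a median of 0.11 that turned to -0.09 with scaling by library size alone, 10 rose and 16 fell at 24 h, and 17 rose and 13 fell at 72 h. The falls numbered 2, 8 and 4 without control mouse 1, 0, 0 and 2 in cells with all 4 further genes and 0, 1 and 1 in cells with 2 or 3.

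Some genes lay above all controls in all 12 treated mice, among them Rpl35 and Hist1h2ap. Of 82 ribosomal protein genes, 50 rose and 1 fell at 3 h, 20 rose and 8 fell at 24 h and 38 rose and 5 fell at 72 h, with medians of 0.28, 0.03 and 0.13. Scaled by library size alone, these medians were 0.08, 0.01 and 0.08. Without control mouse 1, 5 fell at 24 h, and 0 fell there in cells with all 4 further genes and 9 in cells with 2 or 3. Rpl35, a protein of the large subunit, stood at 711, 726, 714 and 805 CPM in controls, 3938, 4160.2, 4302 and 4298 at 3 h, 1706, 1658, 1676 and 1744 at 24 h and 2710.4, 2725, 2739 and 2796 at 72 h. No group overlapped with another, and the log2 changes were 2.52, 1.22 and 1.92. In the earlier Klf1 and Car1 cells described further on they were 2.46, 1.24 and 1.93. Hist1h2ap, a replication-dependent histone gene with near-identical copies, stood at 23, 17.4, 21.4 and 13.3 CPM in controls, 363, 549, 348 and 450.1 at 3 h, 176, 179, 214 and 191 at 24 h and 150.5, 184, 99.5 and 220.4 at 72 h, log2 changes of 4.37 ± 0.20, 3.20 ± 0.20 and 2.97 ± 0.20. In the earlier cells these were 4.01, 3.31 and 2.13. Rpl35 was thus even among the mice of a library and changed about as much in the earlier cells, while Hist1h2ap spread over 2-fold among the 72 h mice and its difference between late and earlier cells did not pass at any time. For both, treatment and library cannot be told apart. Cd34, a surface protein of earlier progenitors, stood at 2.22, 1.53, 3.56 and 0 CPM in controls, 5.34, 0, 0 and 3.08 at 3 h, 4.68, 8.64, 12.3 and 5.09 at 24 h and 12.5, 6.88, 5.08 and 14.3 at 72 h. It rose by 1.58 ± 0.44 at 24 h and 1.90 ± 0.46 at 72 h, with no overlap with the controls. The 72 h call was lost without control mouse 1 (1.82) or the 72 h mouse 1 or 4 (1.71 each), and the 24 h call without control mouse 1 or 2 or the 24 h mouse 2 or 3 (1.27 to 1.52).

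**Figure D4:**
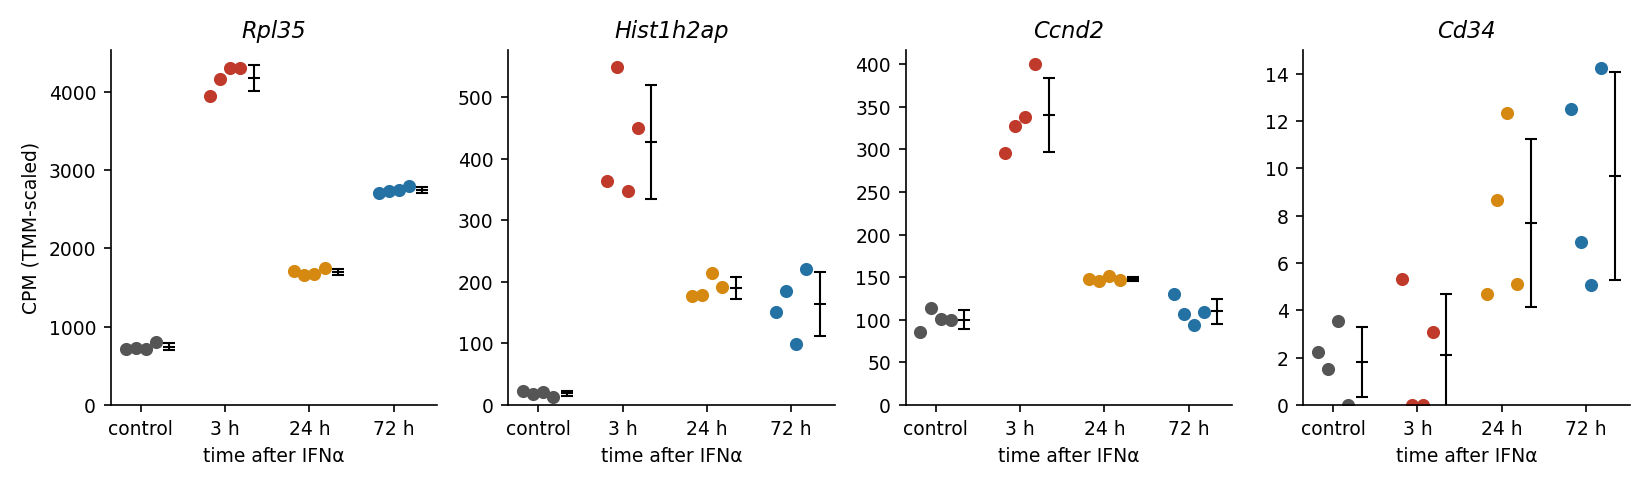
CPM of Rpl35, Hist1h2ap, Ccnd2 and Cd34 in late erythroid progenitors of each of 16 mice, with bars for mean ± SD (n = 4). Rpl35 lies between 711 and 805 CPM in controls and above that in every treated mouse, while Ccnd2 is highest at 3 h and overlaps the controls at 72 h.

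The late cells were next compared with the 746 kept cells that carried Klf1 and Car1 but fewer than 2 of the 4 further genes, called earlier cells here, to ask where the response differed between the sets. The sets differ in more than these genes. The earlier cells had a median of 12272.5 UMIs against 27879, and in controls they held 670 CPM of Prss34 and 87.5 of Mcpt8, basophil genes, and 543 of Elane and 371 of Mpo, against 1.96, 1.12, 58.2 and 64.0 in late cells. The part of depth and of these other lineages in the differences was not tested. The difference between the 2 sets in their change from control was tested within mice, over 7848 genes. At 3 h, 2 genes were higher (0.0255%) and 10 lower (0.127%) in late than in earlier cells, so most ISGs gave no detectable difference: of 76 ISGs, 2 were lower, and the median difference was 0.06. Isg20 was among these. In late cells it stood at 140.0, 92.5, 116 and 106 CPM in controls, 411, 350.3, 376 and 296 at 3 h, 121, 95, 112 and 109 at 24 h and 82.7, 101, 81.3 and 71.3 at 72 h. It rose by 1.63 ± 0.12 in late cells and by 3.66 in earlier cells, a difference of -2.04 (adjusted p = 7.05e-09) that lay between -2.21 and -1.78 when any 1 mouse of the comparison was left out. Within the late cells its rise was 1.25 in those with all 4 further genes and 3.04 in those with 2 or 3. Ube2l6, the conjugating enzyme for ISG15, had a difference of -1.32. 3 of 45 S phase genes were also lower in late cells, Mcm7 and Mcm6 of the replicative helicase and Tipin of the replication fork, and the list's median difference was -0.56. Mcm7 stood at 228, 185, 213 and 199.5 CPM in control and 262, 263, 227 and 265 in 3 h late cells. It changed by 0.27 in late and 1.27 in earlier cells, a difference of -1.03 (adjusted p = 0.00102).

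In earlier cells the median S phase share of UMIs was 0.190, 0.189, 0.191 and 0.124% in control mice and 0.383, 0.392, 0.448 and 0.376% at 3 h. In late cells it was 0.590, 0.410, 0.451 and 0.272% in controls and 0.445, 0.461, 0.422 and 0.451% at 3 h. The earlier cells of all 4 mice at 3 h thus lay above all controls, and the late cells of the groups overlapped. At 24 h the earlier cells stood at 0.273, 0.356, 0.271 and 0.357%, also above all controls, and at 72 h at 0.168, 0.213, 0.163 and 0.148%, among them. These medians were not tested. Lig1, a DNA ligase of replication, was likewise lower, with a difference of -0.95, and Pdcd4, an inhibitor of translation, was higher, with a difference of 0.90. The number of calls moved from 12 to 2 without control mouse 1, 37 without control mouse 2, 23 without control mouse 4 and 21 without the 3 h mouse 1. Only Isg20 and Mcm7 passed without control mouse 1, and Ube2l6, Mcm6, Tipin, Lig1 and Pdcd4 lost the call there. Mcm6, Tipin and Lig1 each lost it for 4 of the 8 mice left out in turn and Pdcd4 for 2.

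**Figure D5:**
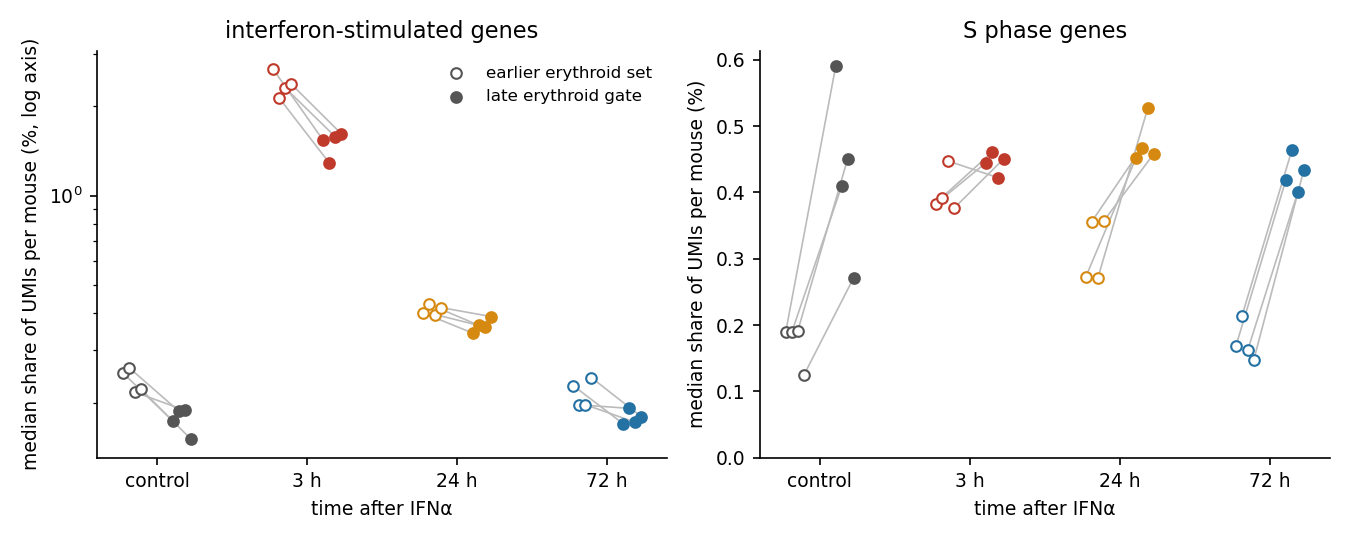
Per mouse median share of UMIs from ISGs (left, percent, log axis) and from S phase genes (right, percent) in earlier cells with Klf1 and Car1 (open) and late erythroid progenitors (filled), with lines joining the sets of a mouse. The S phase share of the 3 h mice lies above all controls in the earlier cells (0.376 to 0.448% against 0.124 to 0.191%) and within the range of the controls in the late cells (0.422 to 0.461% against 0.272 to 0.590%).

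At 24 h, 100 genes (1.27%) were higher and 48 (0.612%) lower in late cells than in earlier cells in their change from control. Among the lower were Hbb-bs (-4.93, adjusted p = 0.00189), Hbb-bt (-3.69) and Tmem14c (-0.70). The Hbb-bs call was lost without control mouse 1, where the difference was -3.11. Among the higher were Ccnd2 (0.74) and 3 of 23 MHC class I genes, H2-K1 (0.41), Psmb8 (0.73) and H2-Q4 (0.90). Each of these 4 and Tmem14c also lost the call without control mouse 1, at 0.72, 0.30, 0.52, 0.81 and -0.53, while Hbb-bt kept it with any 1 mouse left out. Of 76 ISGs, 2 were higher and 1 lower, with a median difference of 0.33. The count of 148 calls was 20 without control mouse 1, 255 without control mouse 2, 48 without the 24 h mouse 2 and 81 without the 24 h mouse 4. At 72 h, 1 gene was higher (0.0127%), Cd34 with a difference of 2.76, and 1 lower (0.0127%), Car1 of the rule itself, which is a description only. No gene passed at 72 h without control mouse 1 or 4 or without the 72 h mouse 1, 2 or 4, while 43 passed without control mouse 3 and 4 without the 72 h mouse 3.

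Against all 9324 other kept cells at 3 h, 54 of 10463 genes (0.516%) changed more upward in the late cells and 108 (1.03%) more downward. Of 77 ISGs, 11 were higher and 6 lower, with a median difference of 0.34 against -0.12 for all genes, and 4 of 23 MHC class I genes were higher and none lower. The difference was 2.92 for Gbp3, a guanylate-binding protein, and 2.14 for Ifi203, a DNA-binding PYHIN protein, but -2.79 for Isg20. All 4 globin genes were lower, by differences from -5.51 (Hbb-bs) to -3.72 (Hbb-bt). With DESeq2's size factors the split became 92 higher and 38 lower, so the balance of directions depends on scaling. The count of 162 calls lay at 80 without control mouse 1, 87 without control mouse 3, 247 without control mouse 4, and 87 and 83 without the 3 h mouse 3 and 4.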

How the data were processed

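Per the labels, 10x Chromium 3′ v3.1 libraries of LK cells with added stem cells were made from hashtagged mice. The authors aligned them to mm10 with Cell Ranger 3.1.0 and deposited UMI counts per gene and barcode without normalization, with hashtag counts, a margin score and the hashtag call of each barcode from Seurat. The gene annotation is not given in the sources used here. Barcodes with a single hashtag, at least 700 genes and at most 5% mitochondrial UMIs were kept, as in the study's methods.

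UMIs were summed per mouse over the late cells, 145521 to 2956041 a mouse. edgeR 4.0.16 under R 4.3.3 (filterByExpr, TMM, quasi-likelihood test, all 16 mice in 1 fit) tested 8093 genes, and differences between cell sets kept the mouse as a block. The share, globin and UMIs per cell were set against controls with exact permutation tests, two-sided. The 6 genes of the rule stayed in the fit, and their values are a description. The 4 mice of a group are separate animals from 1 library. The floors cover counting error only. Values after ± are the SD over mice or the SE of the edgeR fit, which includes the spread among mice.

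Genes named in the text are the 8 largest changes a direction among calls past 2-fold with every treated mouse on 1 side of the control mean, up to 6 a direction for differences, up to 4 a list, the panels and the markers. Genes outside these ranks were picked with their values in view. The members and lists were chosen with earlier results of these data known. Alternatives were DESeq2 1.42.0 (Wald test and size factors), library size alone, other filters, other gates, thinned cells and each mouse left out. A few genes are not reported here.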

Additional observations from a re-analysis of the deposited data

Results flagged for a closer look

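In groups of 4 mice, 10 of 112 sets of per-mouse values held a mouse far from the other 3, where chance flags about 1 in 20. Most are ISGs at few UMIs. Ifit1 stood at 9.50 CPM in the 72 h mouse 4, whose Mx1 was also at 9.50 CPM while the other 3 mice of that time had no UMI of Mx1. Mx1 stood at 6.02 CPM in the 24 h mouse 1, and Usp18 in the same mouse at 31.5 CPM. Cxcl10 stood at 0.511 CPM in control mouse 2 and at 4.0 CPM in the 24 h mouse 4, and Iigp1 at 2.56 CPM in control mouse 2. Ifi27l2a stood at 1.62 CPM in control mouse 3, with 0 in the other controls. Rpl35 stood at 805 CPM in control mouse 4, the mouse with 5 late cells, still below every treated mouse. Mcm7 was low in the 3 h mouse 3, at 227 CPM.

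The change from control differed between cell sets by the edgeR test of the difference itself: between late and earlier cells at 3 h for 12 genes, at 24 h for 148 and at 72 h for 2 when late were set against earlier cells, and for 162 genes at 3 h when they were set against all others.

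Barcodes without a hashtag were outside all comparisons. At 72 h, 11 of them met the rule's genes with a median of 601 UMIs, and globin took 1.73% of their UMIs, against 1.21% in 7 such barcodes of the control library, 0.651% in 24 at 3 h and 0.199% in 8 at 24 h. In each library 3 barcodes held most of this globin, 76.2% of it in control and 56.8, 96.1 and 92.5% at 3, 24 and 72 h. The median depth was 2444 UMIs in control, 636 at 3 h and 9490 at 24 h, so these shares are not levels of a group.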

How the results depend on the processing

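The share of these cells was lower after thinning, in controls 8.32% before it, 7.04% at 10000 UMIs and 2.44% at 5000. The part of depth in the differences between groups was not tested. Several red cell calls rest on control mouse 1. Scaling by library size alone gave 1654 changed genes at 3 h, and DESeq2's Wald test gave 556 at 24 h. With the rule applied to cells of at least 5000 UMIs, thinned to that depth, 379, 193 and 142 genes changed at 3, 24 and 72 h. With at least 3 of the 4 further genes these were 402 at 24 h and 272 at 72 h. As alternatives chosen after seeing the data, cells with all 4 gave 562, 223 and 205, and cells with 2 or 3 gave 496, 180 and 129. Fewer cells enter each of these settings, and fewer mice, with 2 mice at 3 h in the thinned setting, 3 at 3 h with all 4 genes and 3 controls in each, and the cause of the differences was not tested. Without a filter on low counts, the differences between late and earlier cells numbered 61, 259 and 50, and those from all other cells 247.

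The share differed by -2.43 percentage points at 3 h and -1.66 at 24 h with at least 3 of the 4 genes, and by -5.28 at 3 h with at least 1 (exact p = 0.0286 each). These shares count the rule's own genes and are descriptions. Without the cells of highest UMIs, globin differed by -0.107 points at 3 h (exact p = 0.0286). With at least 3 of the 4 genes, median UMIs differed by -5251 at 72 h (exact p = 0.171) and turned to 1608 at 24 h. In cells with 2 or 3 of the genes, the log2 change turned positive at 3 h for Add2 (0.069), Ccna2 (0.28), Cpox (0.022), Fth1 (0.0059) and Tmem14c (0.057), at 24 h for Birc5 (0.076) and Ccna2 (0.019), and at 72 h for Isg20 (0.36).

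With 1 mouse left out in turn, 737 to 917 genes changed at 3 h, 453 to 909 at 24 h and 232 to 489 at 72 h. Differences from earlier cells numbered 2 to 37, 20 to 255 and 0 to 43, and those from all other cells 80 to 247. The share differed by -3.78 to -2.24, -1.45 to 0.0895 (without control mouse 3) and -1.80 to -0.264 points. Globin differed by -0.128 to -0.0555, -0.125 to -0.0525 and -0.118 to -0.0460 points, and median UMIs by -10948 to -5974, -4744 to 159 (without control mouse 1) and -8762 to -3860. Over 161 called changes of named genes, 3060 values under an alternative kept the call, 411 lost it and the 8 above turned.

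The hashtag number does not pair the mice: deviations of mice with the same number correlated by -0.06 to 0.10. With it as a replicate block, 902, 794 and 442 genes changed.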

Other observations

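Hashtag multiplets were also outside all comparisons. Of 103 in the control library 7 met the rule (6.80%), of 67 at 3 h 4 (5.97%), of 169 at 24 h 23 (13.6%) and of 113 at 72 h 10 (8.85%). Those that met it held 1719, 2405, 1887 and 1490 CPM of Mpo and Elane together, genes of granulocyte precursors, against 122, 31.2, 253 and 267 in the late erythroid progenitors.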
